A study of Homo sapiens with 50 samples.

Results

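The mitosis genes are 48 genes whose products build the spindle, load the kinetochores, run the spindle checkpoint, drive entry into mitosis or divide the cell. They were taken from a list of gene names, which was drawn up with earlier results of these data known, and each gene was read from its probe set with the highest mean signal over all 50 arrays. Of the 48, 47 had a probe set naming that gene alone, among 18239 genes measured in this way. PTTG1, which encodes securin, the inhibitor of separase, was not analysed, since its probe sets also name its near-identical copies. The 47 genes comprise 9 kinesins, 9 cyclins and kinases with their phosphatase, 6 spindle checkpoint genes, 10 centromere and kinetochore genes, 5 spindle assembly genes, 4 cytokinesis genes, 3 genes of chromosome structure and anaphase release, and the transcription factor FOXM1.

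Most of these genes are silent or low in cells outside the cycle and rise from S phase to a peak in G2 and mitosis. The repressor complex DREAM holds many of them off in resting cells, and B-MYB and then FOXM1 join the MuvB core of that complex to turn them on. Their transcripts are therefore widely used as a readout of how many cells of a culture are cycling. In bulk RNA, fewer cells in G2 and mitosis and less RNA of these genes per cell cannot be told apart, and this holds for every difference given here.

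The cells were A549, an established human lung adenocarcinoma line. The study treated them with compound 16, which its title calls an activator of PKM, the glycolytic enzyme pyruvate kinase M. Cells were grown in RPMI and sampled there on 3 arrays, described as full medium before the switch. The others were moved to BME with non-essential amino acids (NEAA), either with or without serine, and 24 h later received 1 uM compound 16 or the vehicle DMSO. Collection took place 0, 1.5, 6 and 24 h later, which gives 16 further groups. Each group had 3 arrays, apart from 2 for DMSO with serine at 1.5 h. Every group was thus of 1 line, and all groups but the first shared the change to BME.

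The values are log2 RMA signals on Affymetrix HG-U219 arrays, and their number limits the precision. Medians of the arrays lay between 5.40 and 5.54, no pair held identical values, and the SD of the difference between arrays of a group was 0.19 to 0.26. The A549 markers KRT8, KRT18, KRT7, AKR1B10, AKR1C1 and ALDH1A1 were above the 99th percentile of genes, with EPCAM and CDH1 at percentiles 80.9 and 81.4. The 9 measured markers of other cells lay from 7.54 (PTPRC, leukocytes) to 58.1 (CD68, macrophages), with VWF (endothelium) next at 38.5. At 24 h without serine 0 of 9 measured markers of other cells were called by limma between compound 16 and DMSO (2 at an unadjusted p under 0.05). For ACTB, the 3′ probe set exceeded the 5′ one by 1.20 ± 0.11 with the compound and by 1.17 ± 0.02 with DMSO there (SD, n = 3), a gap that widens as RNA breaks down. A gene was called where limma's Benjamini-Hochberg adjusted p over all 18239 genes was under 0.05. Differences are on the log2 scale, with the first group named minus the second.

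The promoters of the mitosis genes are shown first because the genes moved together. The RefSeq promoter table (GRCh38.p14; 250 bases before to 50 bases after the start) held 39 of the 47. In it, TTTGAA, the letters of the cell cycle genes homology region to which the MuvB core binds, was searched on both strands, so that TTCAAA counted too. CCAAT, the box bound by NF-Y, was searched likewise, so that ATTGG counted too. TTTGAA was present in 28 of 39 member promoters (71.8%) and in 12.2% of the promoters of 14492 genes on the arrays. CCAAT was present in 31 (79.5%) against 36.5%, and both in 23 (59%) against 5.16%. Of 30 promoters of other G2 and mitosis genes, 63.3% held TTTGAA, 60% CCAAT and 50% both. Of 33 promoters of DNA replication genes, 3.03% held TTTGAA and 51.5% held CCAAT. A match describes the letters and is no evidence of binding. In 15 members both stood within the 150 bases before the start. Those of 7 genes, 1 from each subclass but the transcription factor, are printed 5′ to 3′ on the gene's strand, with the matches in capitals; in CDCA8 and MKI67 matches of both motifs overlap in TTTGAATTGG. KIF18A lies at chr11:28108157-28108306 on the minus strand, CCNB2 at chr15:59104996-59105145 on the plus strand and CDC20 at chr1:43358831-43358980 on the plus strand. CDCA8 lies at chr1:37692366-37692515 on the plus strand, DLGAP5 at chr14:55191586-55191735 on the minus strand, ECT2 at chr3:172750576-172750725 on the plus strand and MKI67 at chr10:128126424-128126573 on the minus strand.
KIF18A: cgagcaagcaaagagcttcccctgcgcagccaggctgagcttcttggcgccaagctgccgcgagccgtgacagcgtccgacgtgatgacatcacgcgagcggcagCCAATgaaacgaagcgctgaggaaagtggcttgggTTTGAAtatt
CCNB2: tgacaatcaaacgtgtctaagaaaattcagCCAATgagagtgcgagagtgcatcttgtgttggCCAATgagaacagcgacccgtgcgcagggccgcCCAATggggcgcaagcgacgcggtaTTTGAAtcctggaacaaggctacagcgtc
CDC20: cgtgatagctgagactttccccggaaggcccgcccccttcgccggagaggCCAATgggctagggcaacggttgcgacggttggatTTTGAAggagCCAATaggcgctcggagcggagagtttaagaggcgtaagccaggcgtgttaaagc
CDCA8: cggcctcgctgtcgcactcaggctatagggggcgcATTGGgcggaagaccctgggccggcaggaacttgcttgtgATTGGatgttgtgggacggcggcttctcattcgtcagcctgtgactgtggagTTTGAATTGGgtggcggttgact
DLGAP5: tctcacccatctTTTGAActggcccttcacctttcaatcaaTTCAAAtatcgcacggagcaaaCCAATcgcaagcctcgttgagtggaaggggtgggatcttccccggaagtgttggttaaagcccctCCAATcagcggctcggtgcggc
ECT2: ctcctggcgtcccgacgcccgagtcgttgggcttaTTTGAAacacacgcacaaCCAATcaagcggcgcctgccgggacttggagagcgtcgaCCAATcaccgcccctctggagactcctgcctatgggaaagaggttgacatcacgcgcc
MKI67: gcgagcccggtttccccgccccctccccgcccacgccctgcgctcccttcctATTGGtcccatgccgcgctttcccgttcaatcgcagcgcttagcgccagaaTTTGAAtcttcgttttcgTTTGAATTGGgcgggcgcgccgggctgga

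Averaged over the 47 genes, the mitosis signal was highest before the change of medium and lowest after 24 h of compound 16 without serine. It was 10.07 ± 0.008 in RPMI and 9.21 ± 0.04 in the lowest group (SD, n = 3), a range of 0.86, while the mean of all genes stayed between 6.90 and 6.96. Serine-fed cells came next to RPMI, with 9.93 in DMSO and 9.91 under the compound at 0 h. DMSO with serine at 24 h (9.86 to 9.90 over 3 arrays) and DMSO without serine at 24 h (9.82 to 9.86) overlapped. The other serine-fed groups lay from 9.70 to 9.78. Without serine, the means were 9.57 in DMSO and 9.56 under the compound at 0 h, 9.45 and 9.42 at 1.5 h, and 9.45 and 9.33 at 6 h. Every group without serine thus lay below every serine-fed group, apart from DMSO at 24 h.

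**Figure D1:**
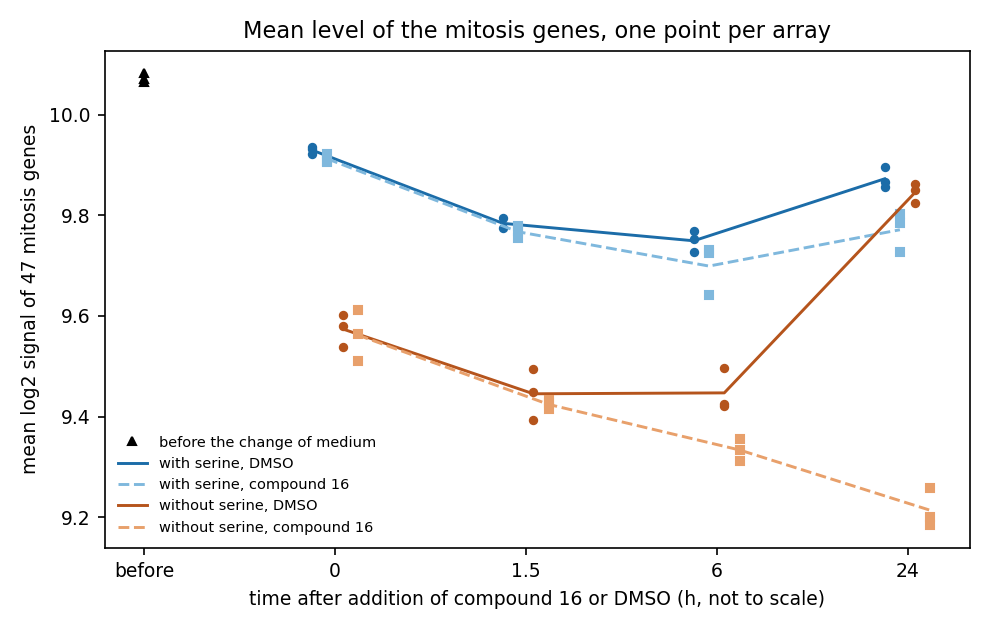
Mean log2 signal of the 47 mitosis genes on each array (vertical axis) against hours after addition (horizontal axis, RPMI cells at the left), for DMSO and compound 16 with and without serine. The arms without serine lie below those with serine up to 6 h; at 24 h DMSO without serine stands at 9.85 and compound 16 without serine at 9.21.

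The genes of the list varied more across groups than most genes and less within them. The median range of the 17 group means was 0.92 per mitosis gene against 0.48 per gene over all genes, larger than in 90.6% of genes. The median SD within a group was 0.096 against 0.15. The mitosis genes lay from percentile 53.5 (KIF20B) to 97.6 (UBE2C) of mean signal. No comparison with genes of like signal was made, so the part of signal in these differences was not tested. Of the 47 genes, 30 were highest before the change of medium and 32 were lowest under compound 16 without serine at 24 h. Over the 17 group means, which share 1 normalization, a gene's correlation with the mean of the others had a median of 0.90. It was highest for CCNB1, the cyclin that activates CDK1, at 0.98, followed at 0.97 by PRC1, the bundler of the central spindle, and HMMR, a spindle assembly factor. It was lowest for TOP2A, the topoisomerase that untangles chromosomes, at 0.52, followed by RACGAP1, PLK1 and MAD2L1 at 0.65 to 0.66. BUB3, a checkpoint subunit also used outside mitosis, had the narrowest range, 0.22, and SGO2, the protector of centromeric cohesin, and KIF14, a kinesin of the central spindle, had ranges of 1.49.

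**Figure D2:**
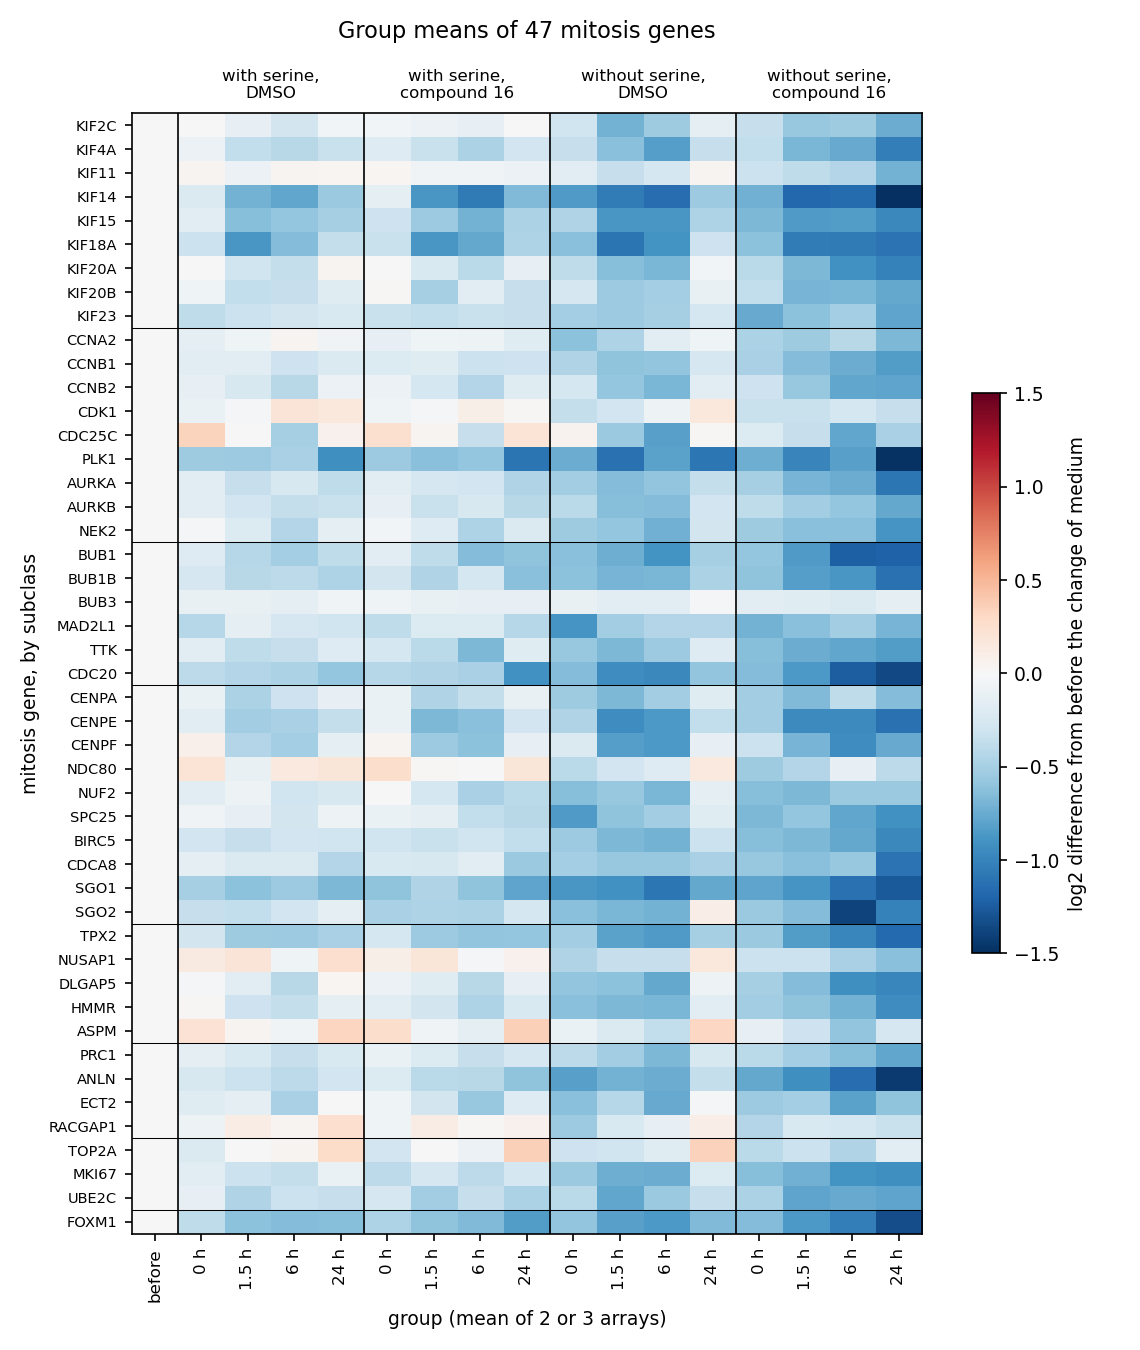
Group means of each of the 47 mitosis genes (rows, by subclass) in the 17 groups (columns), as the log2 difference from the cells before the change of medium; blue is lower and red higher, on a scale from −1.5 to 1.5. The column of compound 16 without serine at 24 h is the bluest in most rows, while BUB3 stays pale throughout.

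On the change of medium the mitosis genes fell, in more members where serine was lacking. In DMSO at 0 h, which is 24 h after the switch, 43 of 47 genes were lower without serine than in RPMI and none higher, with a median of −0.52; 12.6% of all genes were called lower. With serine, 15 were lower and 2 higher, with a median of −0.16; 9.46% of all genes were called lower and 12.3% higher. CDC20, which activates the anaphase-promoting complex, read 11.23, 11.19 and 11.30 in RPMI and had the smallest p in both media, at −0.65 ± 0.06 (SE) without serine (limma adjusted p = 5.52e-11) and −0.39 ± 0.06 with it (adjusted p = 4.5e-06). BIRC5 (survivin, of the chromosomal passenger complex) fell by 0.55 and HMMR fell by 0.63 without serine, and the kinesin KIF23 fell by 0.38 and SGO1 (shugoshin) fell by 0.50 with serine. The largest fall without serine was that of MAD2L1, a checkpoint protein, at −0.89. CDC25C (0.05), ASPM (−0.10), BUB3 (−0.11) and KIF20B (−0.26) were not called without serine. CDC25C, the phosphatase that switches CDK1 on, and ASPM, a spindle pole protein, were the members that rose with serine, by 0.33 and 0.22. Of the 6 single arrays left out, 4 changed the call of CDC25C and 2 that of ASPM. Their second-highest probe sets gave 0.25 and 0.02.

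The proliferation marker MKI67 fell by 0.56 and FOXM1 by 0.59 without serine. The size of the MKI67 fall varied by probe set. Its second-highest, with a mean signal of 9.66, gave −0.19 without serine, and the dimmer ones gave −0.40, −1.10, −0.11 and −0.16. CCNB1, CDK1, AURKA (the centrosomal aurora kinase), PLK1 (polo-like kinase) and TOP2A were lower without serine by −0.46, −0.36, −0.52, −0.74 and −0.31. With serine CCNB1 was at −0.17, PLK1 at −0.53, AURKA at −0.17, TOP2A at −0.22 and FOXM1 at −0.38, all called, while CDK1 and MKI67 were not. Of the 6 single arrays left out, 5 changed the call of AURKA, 4 that of TOP2A and 1 that of CCNB1. The other probe sets of TOP2A gave −0.03 and 0.12 with serine. The RPMI arrays form a block of title numbers of their own, so such a block and the change of medium cannot be told apart. The 3′ minus 5′ gap of ACTB was 1.37 ± 0.09 in RPMI, the highest of the 17 groups, against 1.14 ± 0.09 without and 1.22 ± 0.15 with serine in DMSO at 0 h (SD, n = 3), and its part in these falls was not tested. A fit of only the arrays compared called 38 without serine and 10 with it, and leaving out DMSO with serine replicate 14 left 11. The second-highest probe set of CDCA8 gave a positive difference without serine (0.19).

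Without the compound, most mitosis genes were lower where serine was lacking up to 6 h, and none was called at 24 h. In DMSO, 34 of 47 genes were lower without serine at 0 h, 27 at 1.5 h and 28 at 6 h, with medians of −0.31, −0.33 and −0.30 and none higher; 2.92%, 0.927% and 1.43% of all genes were called lower at those times. At 24 h 0 were called (1 at an unadjusted p under 0.05), the median was −0.02, and the genes ran from −0.16 for PLK1 to 0.24 for SGO2; 0.159% of all genes were called. HMMR at 0 h read 10.96, 10.98 and 11.03 with serine and 10.31, 10.38 and 10.34 without, a fall of 0.65 (limma adjusted p = 1.62e-08). SPC25, a subunit of the NDC80 complex, read 9.65, 9.51 and 9.51 with serine and 8.87, 8.55 and 8.85 without (−0.80 ± 0.09). In both genes all arrays without serine lay below all arrays with it. NUSAP1, a microtubule-binding spindle protein, fell by 0.58.

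By subclass at 0 h, 5 of 5 spindle assembly genes were lower without serine (median −0.58), 4 of 4 cytokinesis genes (−0.46), 8 of 10 centromere and kinetochore genes (−0.38), 5 of 6 checkpoint genes (−0.38), 6 of 9 cyclins and kinases (−0.28), 4 of 9 kinesins (−0.29) and 2 of 3 genes of chromosome structure. FOXM1, at −0.21, was not called. At 1.5 h CCNB1 (−0.44 ± 0.05, limma adjusted p = 3.67e-06), the depolymerising kinesin KIF2C (−0.59) and CDC20 (−0.49) had the smallest p. At 6 h these were CDC20, BIRC5 (−0.42) and SGO1 (−0.55). CDC20 at 6 h read 10.84, 10.72 and 10.72 with serine and 10.30, 10.23 and 10.29 without, a fall of 0.49 (adjusted p = 1.56e-06), and no arrays overlapped.

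These calls in DMSO rest on the spread shared by all 50 arrays: a fit of only the arrays compared called 0 members at 0, 1.5 and 6 h. At 1.5 h, leaving out either DMSO array with serine (replicate 49 or 50) left 8 calls, and leaving out DMSO without serine replicate 54 left 16. The second-highest probe sets of CENPF and CDCA8 gave positive differences at 0 h (0.06 and 0.19), as did that of SGO1 (0.03).

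Under compound 16 most mitosis genes were lower without than with serine at every time, 24 h included. At 0, 1.5, 6 and 24 h 35, 33, 34 and 42 of 47 genes were lower without serine and none higher, with medians of −0.36, −0.34, −0.37 and −0.57; 1.75%, 1.54%, 5.55% and 2.54% of all genes were called lower. At 0 h NDC80 (−0.80), KIF11 (−0.36) and KIF20A (−0.41) had the smallest p, and at 1.5 h CCNB1 (−0.47), AURKA (−0.44) and KIF2C (−0.48). At 6 h CDC20 (−0.74), SGO2 (−0.92) and CCNB1 (−0.42) led. At 24 h KIF20A, a kinesin of cytokinesis, was lower by −0.89 ± 0.07 (limma adjusted p = 4.16e-12), DLGAP5, a spindle assembly factor, by −0.85 and the cyclin CCNB2 by −0.60. The 5 genes not called at 24 h were BUB3 (−0.02), NUF2 (−0.15), MAD2L1 (−0.26), PLK1 (−0.38) and KIF15 (−0.49). A fit of only the arrays compared called 0, 4, 22 and 25 members at the 4 times.

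**Figure D3:**
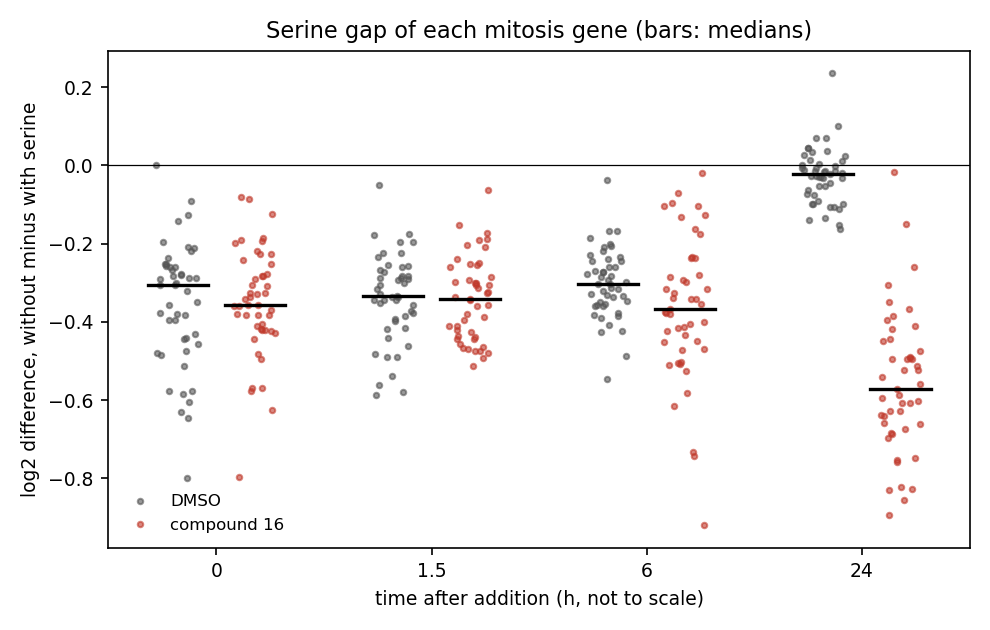
Difference without minus with serine (log2, vertical axis) of each of the 47 mitosis genes at 0, 1.5, 6 and 24 h, in DMSO (grey) and under compound 16 (red), with bars at the medians. The median in DMSO is −0.31, −0.33, −0.30 and −0.02 and that under the compound −0.36, −0.34, −0.37 and −0.57.

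No mitosis gene was called between compound 16 and DMSO in the first hours. At 0 h, where the compound had no time to act, 0 of 47 genes were called by limma without serine and 0 with it (3 and 2 at an unadjusted p under 0.05; medians −0.01 and −0.01); 0% of all genes were called at 0 h in either medium. At 1.5 h the counts were 0 and 0 (2 and 0 at an unadjusted p under 0.05), with 0.0822% of all genes called without serine and 0% with it. At 6 h 5 genes were lower without serine, where 1.23% of all genes were called lower and the members' median was −0.13; with serine 0 were called (4 at an unadjusted p under 0.05; median −0.05), as were 0% of all genes. The counts of 0 at 0 and 1.5 h in both media and at 6 h with serine stayed at 0 under each alternative run.

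The 5 genes lower at 6 h without serine were SGO2, CDC20, ANLN, BUB1 and TOP2A. SGO2 read 8.001, 7.78 and 7.85 in DMSO and 7.22, 7.13 and 7.25 under the compound, a fall of 0.68 (SE 0.09, limma adjusted p = 2.77e-06), with no overlap. CDC20 fell by 0.27 (adjusted p = 0.00775), ANLN, the anillin of the contractile ring, by 0.40, the checkpoint kinase BUB1 by 0.33 and TOP2A by 0.27. TOP2A read 12.17, 12.11 and 12.10 in DMSO against 11.91, 11.78 and 11.89. Its other probe sets, with mean signals of 11.27 and 10.90, gave −0.05 and −0.03. Of the 6 single arrays left out, all 6 changed the call of TOP2A, 4 that of BUB1 and 3 that of ANLN. In 22 of 47 genes the arrays of the groups did not overlap. The compound arrays lay above the DMSO arrays in CENPA and NEK2 and below them in the others of these. Over all genes, all compound arrays lay below all DMSO arrays in 9.82%. Leaving out dim genes or weighting arrays gave 10 calls, and a trended prior or the mean of all probe sets 8. A fit of only the 6 arrays called SGO2 alone, whose second-highest probe set was not called. Leaving out compound 16 replicate 63 or DMSO replicate 66 left 2 calls, and leaving out compound 16 replicate 65 left 3.

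After 24 h without serine nearly every mitosis gene was lower under compound 16 than in DMSO. Of 47 genes, 45 were called lower and none higher, with a median of −0.63, or 1.54-fold lower; 4.08% of all genes were called lower, and the median over all genes was 0.00. In 46 genes all 3 arrays under the compound lay below all 3 DMSO arrays, as in 11.6% of all genes. BUB3 and MAD2L1 were not called. Over the processing choices the lowest count was 39, from a fit of only the 6 arrays. Leaving out each array gave 41 to 44, with CDC25C, NUF2, KIF15 and PLK1 the genes that lost their call for at least 1 array left out.

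Kinesins are the motors that push spindle poles apart, align chromosomes and build the midzone, and 9 of 9 were lower, with a median of −0.70. KIF20A, which carries the passenger complex to the midzone, read 9.72, 9.86 and 9.79 in DMSO and 8.84, 8.77 and 8.83 under the compound. All compound arrays were lower, by −0.98 ± 0.07 or 1.97-fold (limma adjusted p = 2.63e-14), the largest difference among the kinesins. KIF11 (Eg5), which slides the poles apart, read 10.91, 10.87 and 10.97 in DMSO and 10.18, 10.15 and 10.14 under the compound, 1.69-fold lower (adjusted p = 4.14e-13). KIF14 was at −0.95 and KIF18A, which dampens chromosome movements, at −0.79, followed by the chromokinesin KIF4A at −0.70, KIF20B at −0.66, KIF2C at −0.59 and KIF23 at −0.53. The smallest was KIF15, with 7.13, 7.45 and 7.40 in DMSO and 6.62, 6.82 and 7.04 under the compound (−0.50 ± 0.16, adjusted p = 0.047), where the spread within groups was wider.

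Cyclin B with CDK1 starts mitosis, and polo and aurora kinases carry it on; 9 of 9 genes of this class were lower, with a median of −0.58. CCNB1 read 11.20, 11.14 and 11.18 in DMSO and 10.59, 10.60 and 10.58 under the compound, 1.50-fold lower (limma adjusted p = 1.3e-11). CDK1 read 11.55, 11.67 and 11.58 against 11.15, 11.03 and 11.09, 1.42-fold lower. In neither gene did an array of one group reach the other. AURKA had the largest difference of the class, from 11.14, 11.08 and 11.22 to 10.38, 10.46 and 10.40, 1.66-fold lower. CCNB2, CCNA2 (cyclin A), NEK2 (a centrosomal kinase), CDC25C and AURKB (the passenger complex kinase) were at −0.63, −0.61, −0.61, −0.50 and −0.47. PLK1 had the smallest, with 7.06, 7.33 and 7.01 against 6.89, 6.56 and 6.74 (−0.40 ± 0.13, adjusted p = 0.044); its other probe sets, which are dimmer, gave −0.75 and −0.33.

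The spindle checkpoint delays anaphase until every kinetochore is attached, and 4 of its 6 genes were lower. CDC20, the target of the checkpoint, read 10.62, 10.65 and 10.66 in DMSO and 9.85, 9.85 and 9.96 under the compound, 1.69-fold lower (limma adjusted p = 4.17e-12). BUB1, TTK (MPS1) and BUB1B (BUBR1), its kinases and scaffold, were at −0.72, −0.65 and −0.64. MAD2L1 read 10.38, 10.51 and 10.56 in DMSO and 10.20, 10.17 and 10.33 under the compound, at −0.25 with a 95% interval of −0.46 to −0.04 (adjusted p = 0.16). BUB3 read 11.20, 11.29 and 11.27 against 11.21, 11.06 and 11.10, at −0.13 with an interval of −0.26 to −0.00 (adjusted p = 0.25). BUB3 was the 1 gene of the list whose groups overlapped here.

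Centromere and kinetochore genes link chromosomes to the spindle, and 10 of 10 were lower, with a median of −0.63. SGO2 had the largest difference of all 47 genes: 8.69, 8.68 and 8.70 in DMSO and 7.57, 7.41 and 7.74 under the compound, 2.17-fold lower (limma adjusted p = 6.8e-12). The kinetochore motor CENPE was at −0.75, SPC25 at −0.73, BIRC5 at −0.64, the large kinetochore protein CENPF at −0.63 and CDCA8 (borealin) at −0.62. NDC80, SGO1 and the centromeric histone CENPA were at −0.54, −0.49 and −0.47. NUF2, the partner of NDC80, had the smallest difference (8.95, 9.13 and 9.12 against 8.77, 8.44 and 8.75; −0.42 ± 0.12, adjusted p = 0.027).

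All 5 spindle assembly genes were lower, with the largest subclass median, −0.76. DLGAP5 (HURP) read 10.60, 10.65 and 10.59 in DMSO and 9.84, 9.63 and 9.65 under the compound, 1.88-fold lower (limma adjusted p = 8.6e-12). NUSAP1, HMMR and TPX2, the activator of AURKA, were at −0.78, −0.76 and −0.67, and ASPM had the smallest difference, −0.56. All 4 cytokinesis genes were lower too. ANLN read 10.84, 10.78 and 10.77 in DMSO and 9.60, 9.67 and 9.89 under the compound, 2.11-fold lower, beside ECT2, the activator of RhoA at the division plane (−0.58), PRC1 (−0.54) and RACGAP1 (centralspindlin, −0.43). Of the remaining genes, MKI67 read 10.15, 10.13 and 10.07 in DMSO and 9.40, 9.40 and 9.40 under the compound, 1.65-fold lower. TOP2A read 12.64, 12.62 and 12.72 against 12.11, 12.14 and 12.22 (−0.50), and UBE2C, the ubiquitin carrier of the anaphase-promoting complex, was at −0.44. FOXM1, the activator of many of these genes, read 8.28, 8.19 and 8.38 in DMSO and 7.53, 7.54 and 7.79 under the compound, 1.58-fold lower (adjusted p = 5.9e-08).

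A gene's difference showed little relation to its signal: the correlation between mean signal and difference over the 47 genes, which share arrays and normalization, was 0.15. Other probe sets of the same genes mostly ran the same way. Of 72 other probe sets, 4 had the opposite sign, all with a mean signal of at most 4.46, and of the 42 with a mean of at least 8 none did.

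With serine, 1 mitosis gene was lower under compound 16 at 24 h. The median was −0.11, 12 of 47 genes had an unadjusted p under 0.05, and 0.62% of all genes were called lower. CDC20 read 10.62, 10.69 and 10.68 in DMSO and 10.34, 10.36 and 10.30 under the compound, a fall of 0.33 (limma adjusted p = 0.000995), with no overlap. In 17 genes all compound arrays lay below all DMSO arrays, as in 7.84% of all genes. The 95% intervals were −0.19 to 0.01 for CCNB1, −0.25 to −0.03 for CDK1, −0.19 to 0.05 for AURKA, −0.36 to −0.04 for FOXM1, −0.30 to −0.03 for KIF20A and −0.07 to 0.23 for TOP2A. PLK1 was at −0.18 and MKI67 at −0.16. CDC20 lost its call where only the 6 arrays were fitted and with its second-highest probe set.

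**Figure D4:**
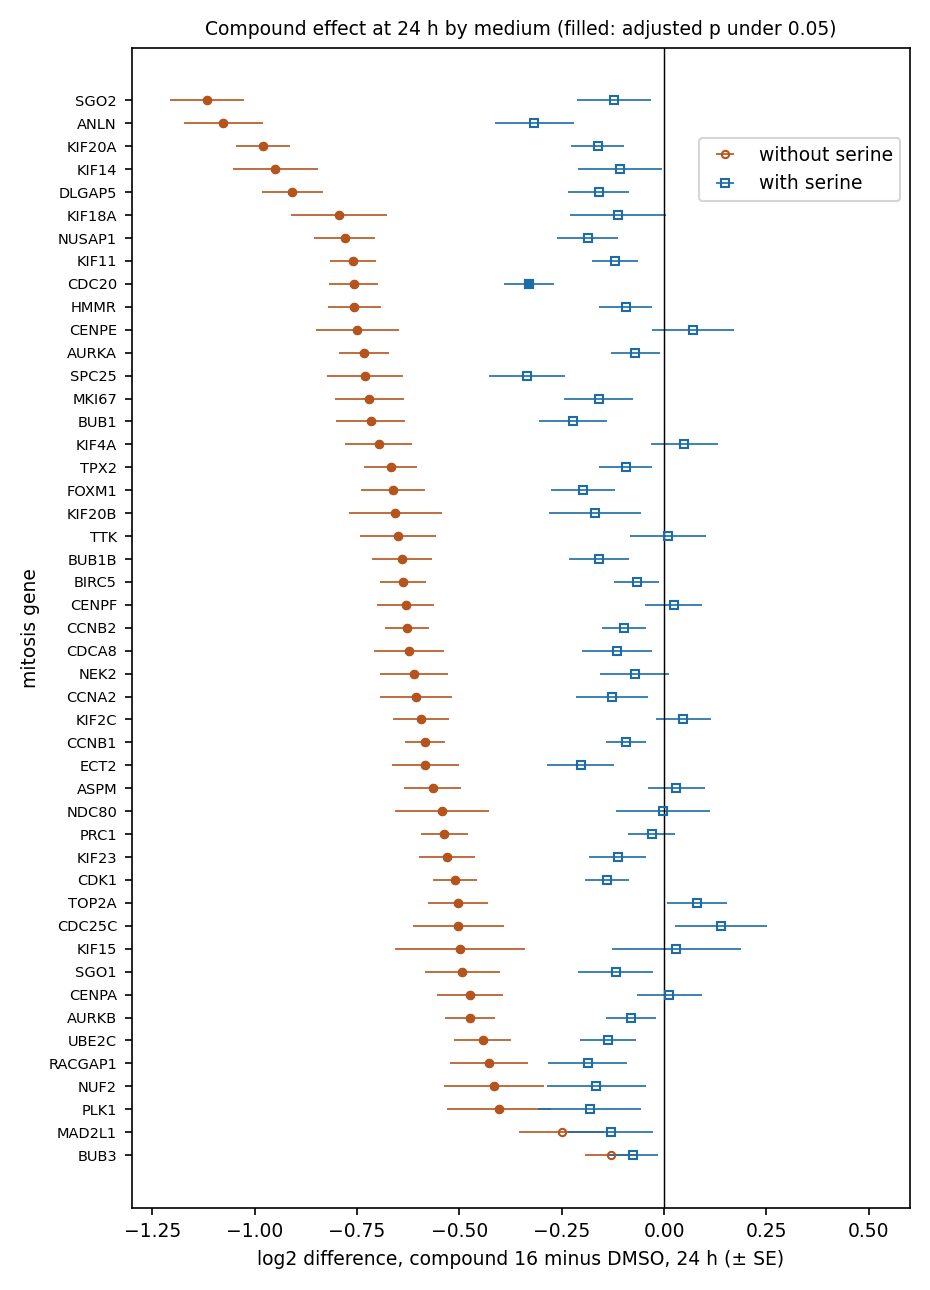
Log2 difference of compound 16 minus DMSO at 24 h (horizontal axis) with its SE, for each of the 47 mitosis genes, without serine (orange) and with serine (blue). Genes are ordered by the difference without serine, and filled points were called. All orange points but BUB3 and MAD2L1 are filled, from −1.12 for SGO2 to −0.40 for PLK1, and CDC20 is the only filled blue point.

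The difference between media was tested directly. At 24 h the fall under the compound was larger without serine in 35 of 47 genes and larger with serine in none, with a median of −0.53; 0.899% of all genes were called lower. KIF20A had −0.82 ± 0.09 (limma adjusted p = 2.62e-06), KIF11 −0.64 ± 0.08, AURKA −0.66 ± 0.09 and SGO2 −0.99 ± 0.13. CCNB1 was at −0.49, CDK1 at −0.37, FOXM1 at −0.46, MKI67 at −0.56 and TOP2A at −0.58. The 5 of 5 spindle assembly genes, 8 of 9 cyclins and kinases, 7 of 9 kinesins, 4 of 6 checkpoint genes, 6 of 10 centromere and kinetochore genes and 2 of 4 cytokinesis genes were called. PLK1, at −0.22, was the 1 cyclin or kinase gene not called (adjusted p = 0.72), although its dimmer probe sets gave −0.84 and −0.53, and ECT2 and RACGAP1 were the cytokinesis genes not called. A fit of only the 12 arrays called 20. At 0, 1.5 and 6 h 0 mitosis genes were called by limma (2, 1 and 6 at an unadjusted p under 0.05), beside 0%, 0.0164% and 0.899% of all genes; at 6 h array weights gave 2, and quantile normalization or leaving out dim genes gave 1.

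The level in DMSO against which the 24 h effect was measured had itself risen, and the same DMSO arrays enter both comparisons. In DMSO without serine 38 of 47 genes rose from 6 h to 24 h and none fell, with a median of 0.38; 4.47% of all genes were called higher. CENPF rose by 0.73 ± 0.07 (limma adjusted p = 8.55e-10), KIF20A by 0.65 and ASPM by 0.68. All 3 genes of chromosome structure rose (median 0.53), all 5 spindle assembly genes (0.52), 8 of 9 kinesins, 9 of 10 centromere and kinetochore genes, 7 of 9 cyclins and kinases and 3 of 6 checkpoint genes. FOXM1 (0.20) and PLK1 (−0.28) were among the genes not called. In DMSO with serine 13 rose and 1 fell, with a median of 0.12; 5.78% of all genes were called higher and 9.67% lower. CCNB2 (0.33), ECT2 (0.50) and DLGAP5 (0.45) rose and PLK1 fell by 0.44. A fit of only those 6 arrays called 7 in place of 14. Times fall in separate blocks of title numbers, so time and such a block cannot be told apart in any comparison between times.

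Under compound 16 without serine the same interval brought mostly falls. From 6 h to 24 h 16 of 47 genes fell and 3 rose, with a median of −0.14; 7.23% of all genes were called lower and 3.33% higher. CDCA8 fell by 0.54 (limma adjusted p = 2.24e-05), AURKA by 0.35 and PLK1 by 0.67, while SGO2, ASPM and TOP2A rose, by 0.37, 0.34 and 0.30. FOXM1 fell by 0.29. This split moved with the processing. Quantile normalization gave 8 falls and 4 rises, arrays centred on their medians 6 and 4, and the second-highest probe sets 11 calls in all. Only the 6 arrays gave 3, and leaving out the compound 16 arrays gave 12 (6 h replicate 63), 11 (6 h replicate 64), 11 (24 h replicate 99) or 10 (24 h replicate 100). KIF14, with a fall of 0.33, was positive with its second-highest probe set (0.52), as was KIF4A (0.08), and that of SGO2 was negative (−0.15). Under the compound with serine 14 rose and 5 fell; 8.41% of all genes were called higher and 11.6% lower. ASPM (0.49) and CENPF (0.49) rose and CDC20 fell by 0.42, and only those 6 arrays gave 8 calls.

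A set of 4 tests of these changes over time was added after the data were seen. In DMSO, the median difference without minus with serine over the 47 genes went from −0.30 at 6 h to −0.02 at 24 h. This upward change was called in 5 genes: CDC20 (0.47 ± 0.09, limma adjusted p = 0.00256), SGO2 (0.66 ± 0.13), BIRC5 (0.40 ± 0.08), AURKA (0.38) and KIF11 (0.32). Of all genes, 0.219% were called higher. All 47 values were positive, from 0.01 to 0.66, with a median of 0.28, and 30 had an unadjusted p under 0.05. AURKA and KIF11 were lost when single arrays were left out, and only the 12 arrays gave 0 calls. Leaving out DMSO with serine 6 h replicate 62 or 24 h replicates 96 or 97, or DMSO without serine 6 h replicates 66 or 68 or 1 array at 24 h, left 3.

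Under compound 16 the same difference became more negative in 11 genes and less in 1 (CDC20, 0.29); 2.97% of all genes were called lower and 1.96% higher. HMMR was at −0.46 ± 0.09 (limma adjusted p = 0.00115), KIF14 at −0.73 and CENPA at −0.52. Leaving out compound 16 without serine 6 h replicate 64 or compound 16 with serine 24 h replicate 95 left 7 of the 12 calls, and only the 12 arrays gave 3. The effect of the compound grew from 6 h to 24 h without serine in 30 of 47 genes, with a median of −0.54 and 1.16% of all genes called lower; HMMR (−0.74, adjusted p = 1.26e-06), KIF20A (−0.76) and KIF11 (−0.59) led. With serine 0 were called by limma (7 at an unadjusted p under 0.05), beside 0.493% of all genes. These tests share arrays with the comparisons above and repeat their values in another form.

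Some members kept courses of their own. From 0 h to 6 h in DMSO without serine 17 genes fell and 5 rose; 14.3% of all genes were called lower and 8.15% higher. The fallers were led by CENPF, CDC25C and CCNB2 (−0.41). CDC25C read 8.37, 8.37 and 8.29 at 0 h, 7.51, 7.50 and 7.42 at 6 h and 8.42, 8.32 and 8.20 at 24 h, so that it dipped at 6 h and returned. It dipped likewise with serine, from 8.62 to 7.79 and back to 8.36. CENPF read 10.08, 10.06 and 10.06, then 9.53, 9.40 and 9.36, then 10.11, 10.20 and 10.18, although its second-highest probe set rose from 0 h to 6 h (0.61).

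The 5 genes that rose from 0 h to 6 h without serine were MAD2L1 (0.45), CCNA2 (0.44), RACGAP1 (0.43), SPC25 (0.32) and CDK1 (0.28); the second-highest probe sets of CCNA2 and RACGAP1 did not (−0.0033 and −0.22). With serine 20 fell and 2 rose, CDK1 by 0.29 and TOP2A by 0.27, with 9.62% of all genes called lower and 4.67% higher; TOP2A was negative with its second-highest probe set (−0.17). CENPF (−0.59), CDC25C (−0.83) and HMMR (−0.37) led the falls, of which CENPF was positive with its second-highest probe set (0.54). Under the compound, 28 fell and 2 rose without serine (CDC20 −0.58, SGO2 −0.83, CENPF −0.61; KIF23 0.24 and NDC80 0.40) and 20 fell with it (CENPF −0.66, KIF14 −0.91, CCNB2 −0.35). Without serine the second-highest probe sets of CENPF (0.24) and KIF23 (−0.05) had the opposite sign. The share of all genes called lower was 13.4% and 9.53%, and 6.43% were called higher without serine. Fits of only the arrays compared gave 10, 6, 14 and 6 calls in place of 22, 22, 30 and 20.

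TOP2A was higher at 24 h than at 0 h in all 4 arms, by 0.66 and 0.50 in DMSO without and with serine and by 0.25 and 0.64 under the compound; in the arms with the compound its second-highest probe set was negative (−0.11 and −0.01). At 24 h in DMSO with serine TOP2A read 12.63, 12.50 and 12.64, above the 12.38, 12.30 and 12.25 read in RPMI. These readings are from its probe set with the highest mean signal. In the same arm the second-highest gave −0.03 from RPMI to 0 h, −0.17 from 0 h to 6 h and 0.22 from 6 h to 24 h. In that probe set the late rise thus did little more than make up the earlier falls. PLK1 was lower at 24 h than at 0 h in all 4 arms, by −0.34, −0.39, −0.75 and −0.56, and averaged 7.30 at 24 h in DMSO with serine against 8.22 before the change of medium.

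From 0 h to 24 h in DMSO without serine 28 genes rose and 1, PLK1, fell (CDK1 0.52, TOP2A 0.66 and NUSAP1 0.61 had the smallest p); 7.97% of all genes were called higher and 17.5% lower, and a fit of only the 6 arrays called 19. Under the compound 31 fell and 1 rose without serine (CDC20 −0.70, AURKA −0.59, TPX2 −0.61), and 15 fell and 1 rose with it (CDC20 −0.48, BUB1 −0.45); 19.6% and 14.8% of all genes were called lower and 7.65% and 6.59% higher, and only the 6 arrays with serine gave 8. In DMSO with serine 3 rose (CDK1 by 0.26, RACGAP1 by 0.33 and TOP2A) and 11 fell, CDCA8 by 0.30; 5.84% of all genes were called higher and 14.8% lower. This last split turned with the scaling: quantile normalization gave 4 rises and 6 falls, and arrays centred on their medians 8 rises and 0 falls. Leaving out DMSO with serine 0 h replicate 15 left 6 calls, 24 h replicate 96 left 9 and 24 h replicate 97 left 5, and RACGAP1 was negative with its second-highest probe set (−0.16).

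**Figure D5:**
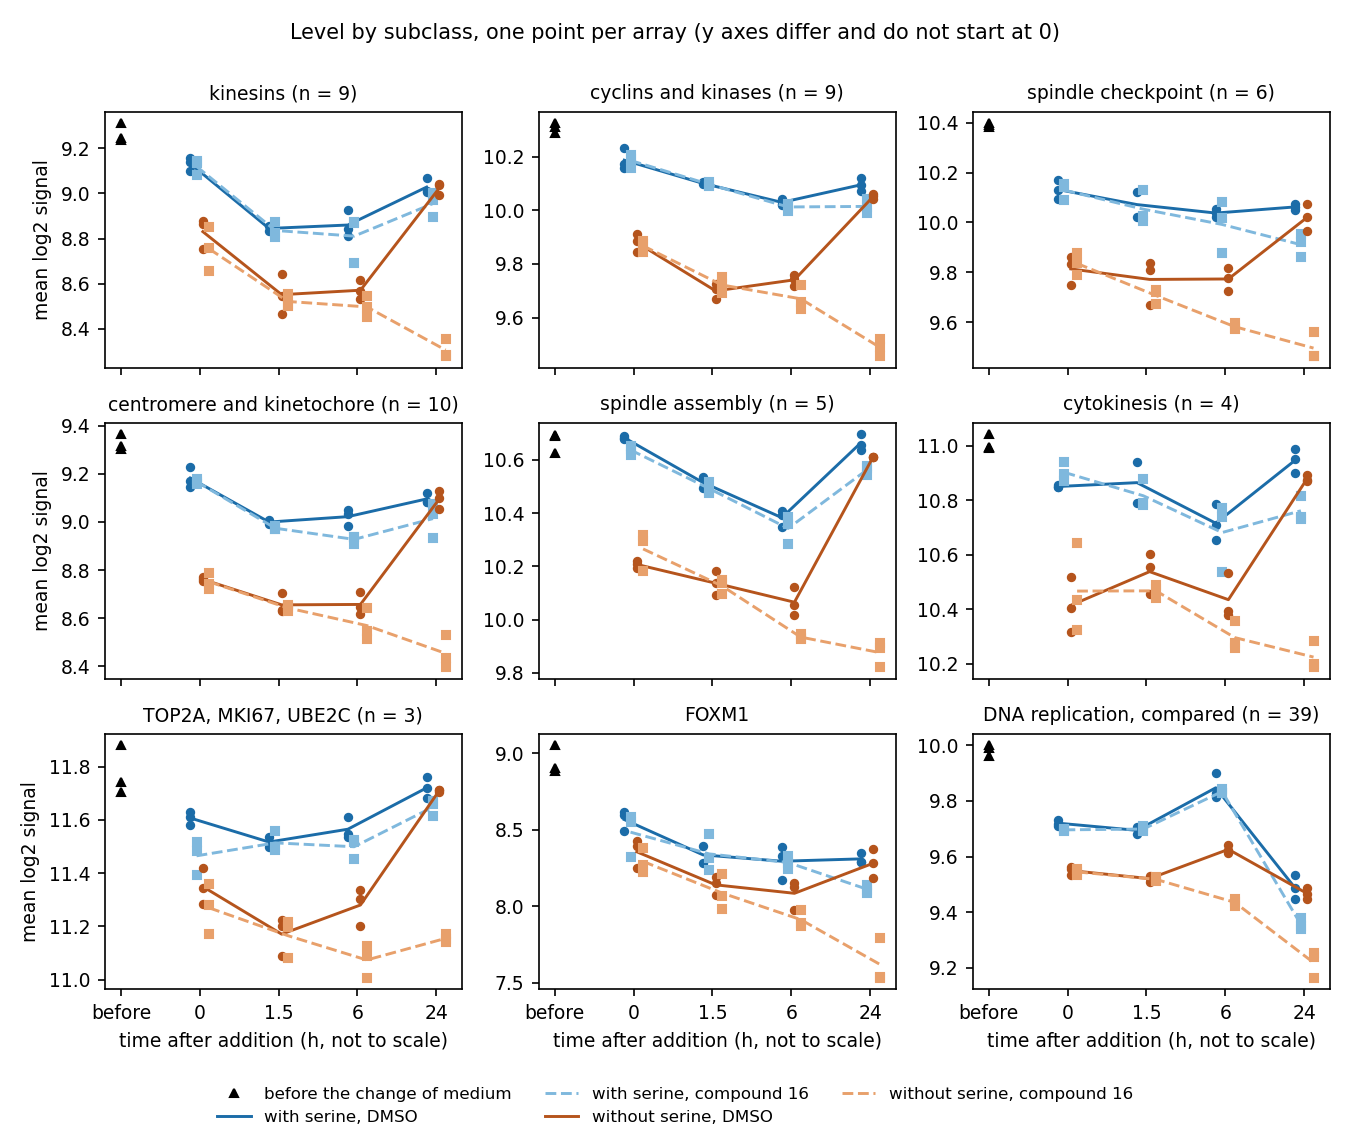
Mean log2 signal (vertical axis, not from 0) of each subclass of mitosis genes and of 39 DNA replication genes, for comparison. It is drawn against hours after addition in the 4 arms. Each array is a point, lines join the group means, and RPMI cells stand at the left. At 24 h DMSO without serine lies near serine-fed DMSO in each subclass, while compound 16 without serine lies below both; the DNA replication genes stand at 9.47 and 9.49 in DMSO at 24 h and at 9.22 under the compound without serine.

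Genes around the list were set beside it for compound 16 against DMSO at 24 h without serine. Of 36 other G2 and mitosis genes, 31 were lower and none higher, with a median of −0.67; PIMREG (−0.82) and SPAG5 (astrin, −0.78) led. Of 8 condensin genes, which compact chromosomes, 7 were lower (median −0.49; NCAPH −0.73, NCAPG2 −0.63). Of 13 genes of the constitutive kinetochore, which stays on centromeres through the cycle, 6 were lower (−0.32; CENPW −0.66, CENPN −0.46). Of 9 genes of the cohesin ring and its loaders 0 were called by limma (3 at an unadjusted p under 0.05), with a median of −0.08. Of 14 subunits and ubiquitin carriers of the anaphase-promoting complex 2 were lower, UBE2S (−0.43) and CDC27 (−0.41), and the median was −0.04. Of 13 DREAM and B-MYB genes, MYBL2, which encodes B-MYB, was lower (−0.53), LIN52, a subunit of the MuvB core, was higher (0.35), and the median was 0.02. Of 39 DNA replication genes 17 were lower, with a median of −0.19, led by RRM2 (a ribonucleotide reductase subunit, −0.60) and GMNN (geminin, −0.46). Each of these counts stands against 4.08% of all genes called lower.

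In the difference between media at 24 h, 23 of the 36 other G2 and mitosis genes, 3 of 8 condensin genes, 3 of 13 constitutive kinetochore genes and 3 of 39 DNA replication genes were called lower, beside 0.899% of all genes. The DNA replication genes took another course in DMSO. From 6 h to 24 h 12 of 39 fell and 1 rose without serine (median −0.18), and 29 fell and 0 rose with serine (−0.35), while 38 and 13 of the 47 mitosis genes rose. Of all genes 7.35% were called lower and 4.47% higher without serine, and 9.67% lower and 5.78% higher with it. The other G2 and mitosis genes gave 13 rises and 1 fall without serine and 3 rises and 6 falls with it. On the change of medium without serine 31 of 39 DNA replication genes were lower (median −0.46), beside 43 of 47 mitosis genes and 12.6% of all genes.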

How the data were processed

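The deposited values are log2 signals of total RNA on 50 arrays, made by the authors with RMA per the submitters' processing notes, which also name limma; the version of either is not given in the sources used here. RMA summarizes probes and normalizes between arrays, so a shift shared by all genes is removed and changes of dim probe sets are compressed. RNA was extracted with Trizol and labelled with biotin, per the labels' protocols. All 50 columns were matched to samples by accession and title (0 unmapped). Of 49386 probe sets, 45259 name 1 gene symbol in the platform annotation, 1327 several, 2707 none and 93 are controls; those without a single symbol were left out. For 11823 of 18239 genes with several probe sets, and for 31 of 47 mitosis genes, the one with the highest mean signal was taken.

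Values were used as deposited, with no filter, in 1 fit of 17 group means with limma 3.58.1 (R 4.3.3; 33 residual and 3.7 prior degrees of freedom), which shares 1 estimate of the spread. There were 34 comparisons, and 4 tests of changes over time were added after the data were seen. P-values were adjusted by Benjamini-Hochberg over all genes within a comparison and called under 0.05. The median SE of a mitosis gene was 0.081 for 3 against 3 arrays and 0.11 for a difference between media. Nothing in the labels tells whether a group's arrays are separate cultures, so p-values measure only the spread among them, which may be technical. Title numbers run in blocks by time, are shared by no groups and pair no samples. Within a time they run group by group.

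The members and all gene lists were chosen with earlier results of these data known, so counts over a list are descriptions. The genes named in each comparison were always CCNB1, CDK1, FOXM1, PLK1, AURKA, MKI67 and TOP2A where space allowed, the 3 called members with the smallest p, up to 5 members not called or called against the main direction, the members with the largest and smallest difference of each subclass for compound 16 without serine at 24 h, and the 2 called genes with the smallest p of each other list; further members were named after their values were seen. In simulated data for compound 16 without serine at 24 h over 18239 genes, the fit recovered 63% of falls of 0.5 and 97% of falls of 1 on the log2 scale, with 11 false calls. For the interaction of compound and serine at 24 h it recovered 34% and 81%, with 4. Alternatives were a filter on dim genes (the lowest 40% by mean), quantile normalization, arrays centred on their medians, array weights, a trended robust prior, the mean of all probe sets or the second-highest probe set of a gene, only the arrays compared, and leaving out each array; for the comparisons beyond the main 12 they were chosen after seeing the data. The probe sets of NEK2, DLGAP5 and UBE2C carry the suffix x, for possible cross-hybridization. Those of KIF15, CDK1, TTK, CDC20, CENPA, TPX2, HMMR, PRC1, ECT2 and RACGAP1 carry the suffix s, for probes shared by several transcripts. Promoter sequences are RefSeq's (GRCh38.p14), with the most upstream listed start for 5 members that have several.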

Additional observations from a re-analysis of the deposited data

Results flagged for a closer look

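The effect of compound 16 at 24 h differed between the media by limma's interaction test in 35 of the 47 mitosis genes. Among the genes always named, the difference without minus with serine was −0.49 for CCNB1, −0.37 for CDK1, −0.46 for FOXM1, −0.66 for AURKA, −0.56 for MKI67 and −0.58 for TOP2A. The kinesins KIF20A (−0.82) and KIF11 (−0.64) had the smallest p of this test.

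The effect of the compound without serine also differed between 24 h and 6 h, in 30 genes. CCNB1 was at −0.43, CDK1 at −0.32, FOXM1 at −0.49, AURKA at −0.59, MKI67 at −0.57, HMMR at −0.74, KIF20A at −0.76 and KIF11 at −0.59 for the later minus the earlier effect.

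The difference between the media also changed from 6 h to 24 h, in tests added after the data were seen. In DMSO 5 genes were called, with AURKA at 0.38, CDC20 at 0.47, SGO2 at 0.66 and BIRC5 at 0.40. Under the compound 12 genes were called, with HMMR at −0.46, KIF14 at −0.73 and CENPA at −0.52; CDC20 was the 1 gene of the 12 with a positive value. The difference between these changes in DMSO and under the compound was not tested.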

How the results depend on the processing

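No paired analysis was possible because no groups share replicate numbers. Counts of called mitosis genes stayed within 1.5 times the reported ones, in the same direction, under each alternative run for compound 16 without serine at 24 h, serine lack in DMSO at 24 h, the change of medium without serine, DMSO without serine from 6 h to 24 h, compound 16 without serine from 0 h to 24 h and the growth of the compound effect without serine. Where only the arrays compared were fitted, which leaves fewer degrees of freedom, 380 values of single genes lost their call and 476 kept their side of the threshold. Signs could not change in that setting, since a fit of group means gives the same differences from fewer arrays. Centring moved the median of all genes from −0.03 to 0.07 for compound 16 without serine from 0 h to 24 h, where the mitosis genes' median went from −0.39 to −0.29 with 31 and 29 falls called; in the other comparisons no scaling moved it by over 0.1.

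With only the arrays compared, the count was 1 for compound 16 without serine at 6 h, 0 with serine at 24 h and 20 for the difference between media at 24 h. For serine lack it was 0 at 0, 1.5 and 6 h in DMSO and 0, 4, 22 and 25 at 0, 1.5, 6 and 24 h under the compound. It was 10 for the change of medium with serine, 7 for DMSO with serine and 3 and 8 for the compound without and with serine from 6 h to 24 h. From 0 h to 6 h it was 10 and 6 in DMSO and 14 and 6 under the compound, and from 0 h to 24 h 19 and 4 in DMSO and 8 under the compound with serine. For the change of the difference between media it was 0 in DMSO and 3 under the compound.

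Without dim genes, the count was 10 for compound 16 without serine at 6 h, 2 with serine at 24 h, 1 for the media difference at 6 h, 10 for the change of the difference between media in DMSO and 1 for the growth of the compound effect with serine. Array weights gave 10, a trended robust prior 8 and the mean of all probe sets 8 for compound 16 without serine at 6 h. With serine at 24 h the trended prior gave 3, the mean of all probe sets 4 and centred arrays 2. Array weights gave 2 and quantile normalization 1 for the media difference at 6 h, and weights or the trended prior 1 for the growth of the compound effect with serine. For the change of the difference between media in DMSO, the trended prior gave 9 and the mean of all probe sets 10. For the compound without serine from 6 h to 24 h, quantile normalization gave 12 and centring 10; for DMSO with serine from 0 h to 24 h centring turned the direction, with 8 calls, all higher. The range of the mean signal over groups was 0.82 with quantile normalization, 0.79 with centred arrays and 0.81 with probe sets averaged. The cause of these shifts was not tested.

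The second-highest probe sets gave 2 calls for compound 16 without serine at 6 h and 0 with serine at 24 h, 17 for serine lack in DMSO at 1.5 h, 11 for the compound without serine from 6 h to 24 h, 13 and 9 for DMSO with serine from 0 h to 6 h and to 24 h, and 3 and 4 for the change of the difference between media in DMSO and under the compound. They turned the sign of single genes. CDCA8 was at 0.19 on the change of medium without serine, 0.19 for serine lack in DMSO at 0 h and 0.12 under the compound with serine from 6 h to 24 h. SGO1 was at −0.0093 in DMSO without serine from 6 h to 24 h, 0.026 for serine lack at 0 h, 0.055 for it under the compound at 1.5 h and 0.047 under the compound without serine from 0 h to 6 h. CENPF was at 0.059 and 0.14 for serine lack in DMSO at 0 and 6 h, 0.11 under the compound at 6 h, 0.61 and 0.54 in DMSO without and with serine and 0.24 under the compound without serine from 0 h to 6 h, 1.63 in DMSO with serine and 1.04 under the compound without serine from 0 h to 24 h, and 0.013 for the growth of the compound effect. The mean of its probe sets gave 0.70 and 0.30 for those 24 h courses.

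Under the compound without serine from 6 h to 24 h, KIF4A was at 0.077, SGO2 at −0.15 and KIF14 at 0.52 (0.095 as the mean over its probe sets). KIF4A was at 0.14 for the change of the difference between media under the compound and 0.11 in DMSO with serine from 0 h to 24 h, and KIF14 at 0.29 there and 0.21 under the compound with serine. MKI67 was at −0.28 under the compound with serine from 6 h to 24 h. From 0 h to 6 h CCNA2 was at −0.0033 and RACGAP1 at −0.22 in DMSO without serine, TOP2A at −0.17 with serine (−0.014 as the mean) and KIF23 at −0.049 under the compound without serine. From 0 h to 24 h SGO2 was at −0.14 in DMSO without serine, RACGAP1 at −0.16 with it (−0.020 as the mean), TOP2A at −0.11 and −0.013 under the compound without and with serine and NEK2 at 0.061 without.

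Leaving out each array in turn gave 2 to 4 calls for compound 16 without serine at 6 h, 41 to 44 at 24 h, 1 to 1 with serine at 24 h, and 29 to 35 and 0 to 1 for how far that effect differed between media at 24 h and 6 h. For serine lack it gave 30 to 34, 8 to 24, 21 to 24 and 0 to 0 in DMSO and 26 to 34, 25 to 28, 30 to 35 and 41 to 42 under the compound at 0, 1.5, 6 and 24 h. The change of medium gave 40 to 43 without and 11 to 14 with serine. From 6 h to 24 h the range was 32 to 38 and 10 to 12 in DMSO without and with serine and 10 to 16 and 13 to 20 under the compound. From 0 h to 6 h these were 16 to 20, 16 to 20, 22 to 28 and 16 to 21, and from 0 h to 24 h 22 to 28, 5 to 11, 31 to 34 and 14 to 17. The tests added later gave 3 to 6, 7 to 11, 27 to 33 and 0 to 1. The range of the mean signal was 0.84 to 0.88. The other comparisons stayed at 0.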
